A study of Mus musculus with 13 samples.

Results

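The receptor tyrosine kinases of the ERBB family and their neuregulin ligands were followed here through the chromatin around their genes. The loci are those of Erbb4, of the other receptors Erbb2, Erbb3 and Egfr, and of the ligands Nrg1, Nrg2 and Nrg3. Members were all regions called by ATAC-seq whose strongest summit lay within 100 kb of the annotated body of 1 of these 7 genes (GENCODE M21, mm10). This gave 2466 of the 1357031 unique regions of 13 libraries, and 553 of 284051 consensus regions after overlapping regions of all libraries had been merged. Erbb4 was taken up because an intronic region of it stood among the strongest in distal and not in proximal limb cells, so that its distal to proximal values are described without a test.

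Cells came from embryos at E12.5 in the B6CBAF1 background, either wild-type (wt) or homozygous for allele 542, in the distal forelimb (DFL), the proximal forelimb (PFL) and the forebrain (FB). Allele 542 carries a single copy of the distal limb enhancer II1, with an HBB promoter and LacZ, in the T-DOM landscape of HoxD on chromosome 2, where no member lies. The 12 libraries compared form 6 groups of 2 replicates. Each library held 50000 collagenase-dissociated cells from a pool of embryos, and the pools of a group came from different embryos. A further wt DFL library, made from an earlier sample, is named wherever it is used. The wt reads had been mapped on mm10 and the 542 reads on a genome with the insertion, so that genotype and mapping genome cannot be told apart. No other batch is given in the labels. In tissue of mixed cell types, fewer cells with an open region and a less open region in each cell cannot be told apart.

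ERBB4 and ERBB3 bind neuregulins, ERBB2 binds no known ligand and acts as the partner of the others, and EGFR binds EGF-like ligands. On binding, receptors pair and phosphorylate each other, and ERBB4 can also be cleaved so that its inner part reaches the nucleus. In the brain, neuregulin and ERBB4 are known for the migration and wiring of inhibitory neurons. ERBB3 and NRG1 are known for the Schwann cell lineage, and EGFR signalling takes part in skin and skeletal development.

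The sequences at the summits on which the results turn are shown first. Each is the 300 bp window centred on a strongest summit, on the plus strand of GRCm38 (mm10). Capitals mark matches, on either strand, to 8 motifs searched for. These were CAATAAA for posterior HOX factors, its variants with the letters TCGTAAA or with the letters TCATAAA, then TGACAG for MEIS factors, TAATTA for homeodomain factors, the E-box CAGATG of bHLH factors, their second E-box CAGCTG, and finally AACAAT for SOX factors. TAATTA and CAGCTG read alike on both strands. Regions are numbered along the chromosome within each locus, and since Erbb4 lies on the minus strand its numbers rise toward the gene's start. The DFL region Erbb4-79 (window chr1:68674676-68674975) and the FB region Erbb4-78 (chr1:68666881-68667180) are shown by rule. The PFL region Erbb4-142 (chr1:69093093-69093392) and the limb region Erbb4-127 (chr1:68973647-68973946) are shown because each is the counterpart for another tissue. Nrg1-53 (chr8:32118949-32119248) and Nrg1-52 (chr8:32117874-32118173) are shown because they are neighbours that stood out in opposite limb domains. These last 4 were chosen after their values were seen.
Erbb4-79: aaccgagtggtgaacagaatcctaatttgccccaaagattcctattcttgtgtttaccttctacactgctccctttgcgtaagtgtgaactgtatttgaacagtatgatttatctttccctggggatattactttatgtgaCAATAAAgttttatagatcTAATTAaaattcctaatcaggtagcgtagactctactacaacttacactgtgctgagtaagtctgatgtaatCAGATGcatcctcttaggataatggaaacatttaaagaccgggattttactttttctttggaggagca
Erbb4-78: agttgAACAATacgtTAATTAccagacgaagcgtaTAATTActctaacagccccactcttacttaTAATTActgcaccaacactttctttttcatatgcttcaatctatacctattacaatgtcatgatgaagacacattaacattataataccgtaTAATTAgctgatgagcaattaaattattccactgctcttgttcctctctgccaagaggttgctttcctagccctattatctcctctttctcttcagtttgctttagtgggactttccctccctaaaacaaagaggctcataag
Erbb4-142: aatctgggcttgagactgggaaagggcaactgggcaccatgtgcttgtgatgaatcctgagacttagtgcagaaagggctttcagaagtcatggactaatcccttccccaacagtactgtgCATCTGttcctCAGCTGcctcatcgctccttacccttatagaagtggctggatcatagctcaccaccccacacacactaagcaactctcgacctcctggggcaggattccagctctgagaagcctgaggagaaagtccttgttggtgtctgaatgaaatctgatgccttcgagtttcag
Erbb4-127: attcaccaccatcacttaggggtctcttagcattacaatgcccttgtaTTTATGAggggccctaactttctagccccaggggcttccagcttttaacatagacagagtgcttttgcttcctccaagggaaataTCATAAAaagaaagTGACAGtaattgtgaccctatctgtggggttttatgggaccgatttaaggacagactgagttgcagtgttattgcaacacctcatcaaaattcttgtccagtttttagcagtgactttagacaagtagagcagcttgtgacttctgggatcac
Nrg1-53: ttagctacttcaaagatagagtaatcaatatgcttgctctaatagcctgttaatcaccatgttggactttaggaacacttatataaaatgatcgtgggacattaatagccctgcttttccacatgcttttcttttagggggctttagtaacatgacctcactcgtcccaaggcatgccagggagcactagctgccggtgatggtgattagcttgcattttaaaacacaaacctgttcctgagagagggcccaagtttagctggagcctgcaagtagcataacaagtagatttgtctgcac
Nrg1-52: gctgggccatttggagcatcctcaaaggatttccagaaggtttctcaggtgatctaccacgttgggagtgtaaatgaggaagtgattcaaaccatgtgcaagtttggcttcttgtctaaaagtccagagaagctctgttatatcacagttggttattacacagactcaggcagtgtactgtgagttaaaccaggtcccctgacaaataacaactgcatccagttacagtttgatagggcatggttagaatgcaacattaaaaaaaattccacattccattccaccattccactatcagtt

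The Erbb4-79 window held 1 match to CAATAAA, 1 match to the homeodomain motif and 1 match to an E-box, CAGATG. The Erbb4-78 window held 4 matches to TAATTA and 1 to AACAAT. The 2 Nrg1 windows held none of the 8 motifs. Across the 105099 consensus regions that were among the 50000 strongest of at least 1 of the 12 libraries, CAATAAA was found in 7.14% of windows, TAATTA in 14% and AACAAT in 15.1%. Among the 2678 regions of the genome present in all DFL and no PFL libraries these shares were 17.6%, 27.2% and 18.9%. A match describes the letters in a window and does not show that a factor was bound.

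Fold, as used below, is the ratio given by the authors' peak caller of tags at the summit to the local background of the same library. A region was counted as present in a library when it was among the 50000 strongest regions of that library, so that all lists had equal length. A region can thus be called and still not be counted as present. The libraries held 37.5 to 54.5 M tags in the limb and 51.4 to 70.7 M in FB, as recovered from the peak files. Tissue labels were checked at the start sites of marker genes. The start of Six3, a forebrain transcription factor, was called in 4 of 4 FB and in 0 limb libraries, and that of Tbx5, a forelimb factor, in 3 DFL, 3 PFL and 0 FB libraries. The mean fold at Hoxa13, a distal limb gene, was 9.29 in DFL and 5.51 in PFL. Starts of the blood genes Gata1, Hbb-bh1 and Ptprc were called in 0 libraries. Of the neural crest genes, Sox10 was called in 1 PFL library and Foxd3 in 1 DFL, 1 PFL and 2 FB libraries. The part of these cells in the results was not tested.

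The number of regions differed by locus and tissue. At Erbb4 the lists of the 4 FB libraries held 23, 29, 28 and 24 regions (wt replicates 1 and 2, then 542 replicates 1 and 2). Those of DFL held 13, 14, 15 and 12, and those of PFL 14, 13, 13 and 14. FB and limb libraries did not overlap, while DFL and PFL did. Nrg1 gave 21 to 25 regions in FB against 10 to 18 in limb libraries, and Nrg3 gave 14 to 18 against 4 to 8. Both ligand genes thus had separate ranges in FB and limb, and how common this is among other loci was not examined. Egfr went the other way within the limb, with 11 to 14 regions in PFL, 7 to 9 in DFL and 6 to 8 in FB. At Erbb2, Erbb3 and Nrg2 the ranges of FB and limb overlapped. Counted over all deposited regions, FB libraries held 60 ± 6.48 regions at Erbb4 and limb libraries 40 ± 5.13 (SD, n = 4 and 8). At Nrg3 these were 44.3 ± 7.14 and 14.3 ± 3.24, at Nrg1 49.5 ± 3.42 and 40 ± 6.57, and at Erbb2 17 ± 1.41 and 10.5 ± 2.56. The ratio of the means was 1.5 at Erbb4, 3.11 at Nrg3, 1.24 at Nrg1 and 1.62 at Erbb2, where the ranges of 15 to 18 in FB and 8 to 15 in the limb met and no consensus region had its strongest summit in the gene body. At Egfr the means were 15.5 ± 2.38 and 26.6 ± 3.58, a ratio of 0.582, and at Erbb3 and Nrg2 the ratios were 1.01 and 0.968. Depth moved with tissue, with the FB libraries deeper on average, and its part in these counts was not tested.

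**Figure D1:**
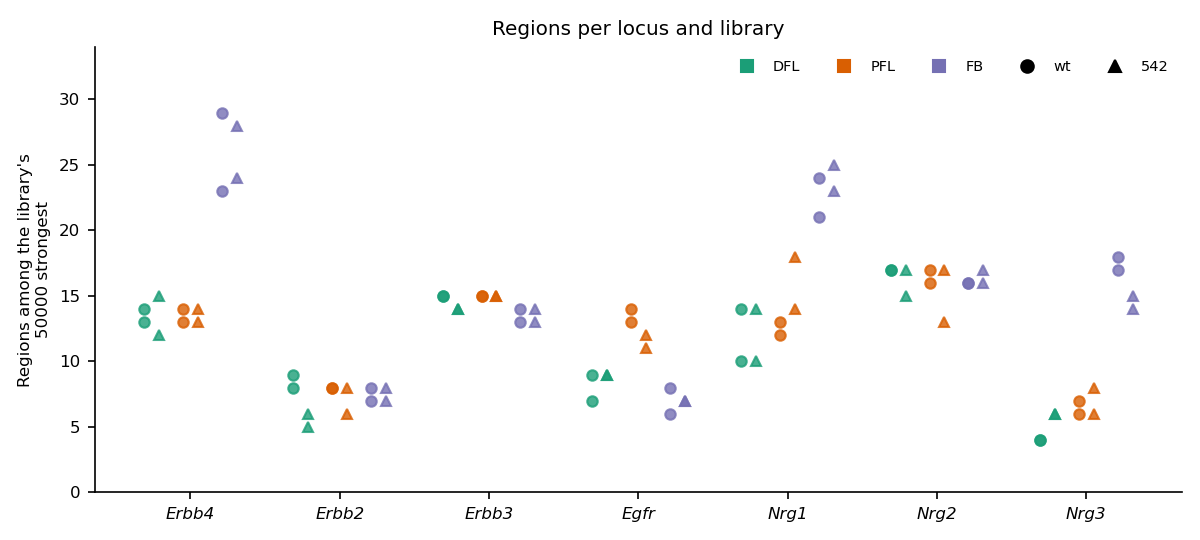
Number of regions among the 50000 strongest of each library (vertical axis) at each of the 7 loci, with 1 point per library, colour for tissue, circles for wt and triangles for 542. The FB points of Erbb4 (23 to 29), Nrg1 (21 to 25) and Nrg3 (14 to 18) lie above all limb points of the same locus.

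The loci also differed in where their regions lay. Of the 156 consensus regions at Erbb4, 134 were intronic and 2 exonic. At Nrg1 114 of 144 were intronic, at Nrg3 81 of 90 and at Egfr 40 of 64. Erbb2 and Erbb3 are short genes (25.2 and 22.1 kb), and 0 of 31 and 2 of 23 regions had their summit in the gene body. At those loci 7 and 10 regions lay within 1 kb of the start of another gene, so that values there largely describe neighbours. Of the 553 consensus regions, 157 were called in a single library of the 12 and 52 in all 12.

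Presence was then compared between tissues. The share of all 105099 consensus regions that were in all 4 FB and no limb library was 8.81%, and 203 member regions could be counted in the same way. At Erbb4 13 of 54 (24.1%) were in all FB and no limb libraries, at Nrg1 9 of 45 (20%), at Nrg3 9 of 28 (32.1%) and at Egfr 3 of 25 (12%). No region of Erbb2, Erbb3 or Nrg2 was in this class. In the opposite class, in all limb and no FB libraries, stood 4.83% of all regions and 8 of the 203 members, of which 3 were at Erbb4. In all 12 libraries stood 17.5% of all regions, 1 of 54 at Erbb4, 1 of 28 at Nrg3, 3 of 45 at Nrg1, 11 of 23 at Nrg2 and 13 of 15 at Erbb3. Regions of a locus share their libraries and are not replicates, so no test was made over them. With lists of 20000 regions the FB class held 5 regions at Erbb4 and 6 at the other loci, and with all deposited regions 22 and 41.

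Of the 34 member regions in the FB class, 30 were intronic and 0 lay within 1 kb of a protein-coding start. No call of any strength was made in the limb for 27 of them. These counts were not made over the whole FB class, so they set the members apart from nothing. The TAATTA motif was found in 47.1% of the 34 windows, against 32.7% of the 9259 windows of the whole FB class and 14% of all windows. At Erbb4 it was in 8 of 13 windows (61.5%), and AACAAT was in 7 of 13 (53.8%), against 22.4% of the whole FB class. The Erbb4 windows were also poorer in G and C, with a median of 40% against 45% in the whole FB class. These shares rest on few windows and the part of base composition in them was not tested.

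The intronic Erbb4 regions were next taken singly. Within the gene body, 30 regions were among the 50000 strongest in both libraries of at least 1 group. Of these, 16 were in lists of FB and no limb library, 10 in lists of the limb and no FB library, and 4 in both. The 10 with the highest mean fold in a group are described first, ordered from the start of the gene to its end.

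Intron 1, which holds 14 of the 30, had 5 of the 10. Erbb4-135, 61.3 kb from the start (chr1:69046220-69047111), had folds of 12.7 and 12.3 in wt FB and 13.2 and 13.9 in 542 FB. Erbb4-128, at 97.8 kb (chr1:69009665-69010596), had 13.7 and 10.9 in wt FB and 12.8 and 9.55 in 542 FB. Erbb4-89, at 358.9 kb (chr1:68748884-68749464), had 10.4 and 11.3 in wt FB and 12.3 and 10.8 in 542 FB. None of these 3 was called in any limb library, and their wt and 542 values overlapped except at Erbb4-135. The other two in intron 1 were regions of the limb. Erbb4-127, at 134.3 kb (chr1:68973205-68974188), had folds of 10.7, 10.97, 10.4 and 10.2 in DFL (wt, wt, 542, 542) and 9.35, 9.86, 7.99 and 7.95 in PFL. Erbb4-95, at 327.2 kb (chr1:68780010-68781484), had 11.8, 10.9, 6.64 and 9.27 in DFL and 6.76, 8.99, 6.18 and 5.59 in PFL. Neither was called in FB.

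Intron 2 held an FB region and a DFL region side by side. Erbb4-78 (chr1:68666646-68667543) had folds of 15.8 and 13.6 in wt FB and 17.3 and 13.2 in 542 FB, from 294, 196, 265 and 170 tags under the summit, and was not called in any limb library. It had the highest group mean of the gene body. Its summit lay 7.8 kb from that of Erbb4-79 (chr1:68674495-68675427), the region by which the gene was chosen. Erbb4-79 had folds of 14.4 and 13.6 in wt DFL and 13.6 and 12.1 in 542 DFL, from 113, 101, 84 and 73 tags. In PFL it was called at 4.18, 3.32 and 3.17 in 3 libraries and not in 542 replicate 2, and in FB it was not called. In DFL it stood at percentiles 90.7 to 94.5 of the folds of each library.

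Beyond Erbb4-79, 2 further regions of intron 2 followed the same tissue order at lower fold. Erbb4-81 (chr1:68682661-68683464), 8.2 kb away, had 9.70 and 7.58 in wt DFL and 3.32 and 8.69 in 542 DFL, 4.18, 3.32 and 2.97 in 3 PFL libraries, and no call in FB. The value of 542 DFL replicate 1 was in the range of PFL, and without that library 2 Erbb4 regions rather than 1 were in all DFL and no PFL libraries. Erbb4-87 (chr1:68723813-68724640), 49.4 kb away, had 6.50 and 6.90 in wt DFL and 4.61 and 3.40 in 542 DFL, was called once in PFL at 3.22, and was not called in FB. Both were picked out with their values in view.

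Further toward the end of the gene, the strong regions were of FB. Erbb4-49 in intron 3 (chr1:68400870-68401737) had 9.74 and 10.1 in wt FB and 13.4 and 13.6 in 542 FB, and 3 weak limb calls of 2.64 to 2.77. Here the 542 values exceeded the wt values without overlap, in 2 against 2 libraries. Erbb4-21 in intron 20 (chr1:68142443-68143398) had 11.4, 12.2, 11.8 and 11.3 in FB and was called once in the limb, at 3.40. Erbb4-9 in intron 25 (chr1:68046291-68047620) was open in all tissues, with 10.6 to 13.3 in FB against 4.28 to 6.31 in the limb. The other 20 of the 30 had mean folds between 4.87 and 9.06 in their best group.

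**Figure D2:**
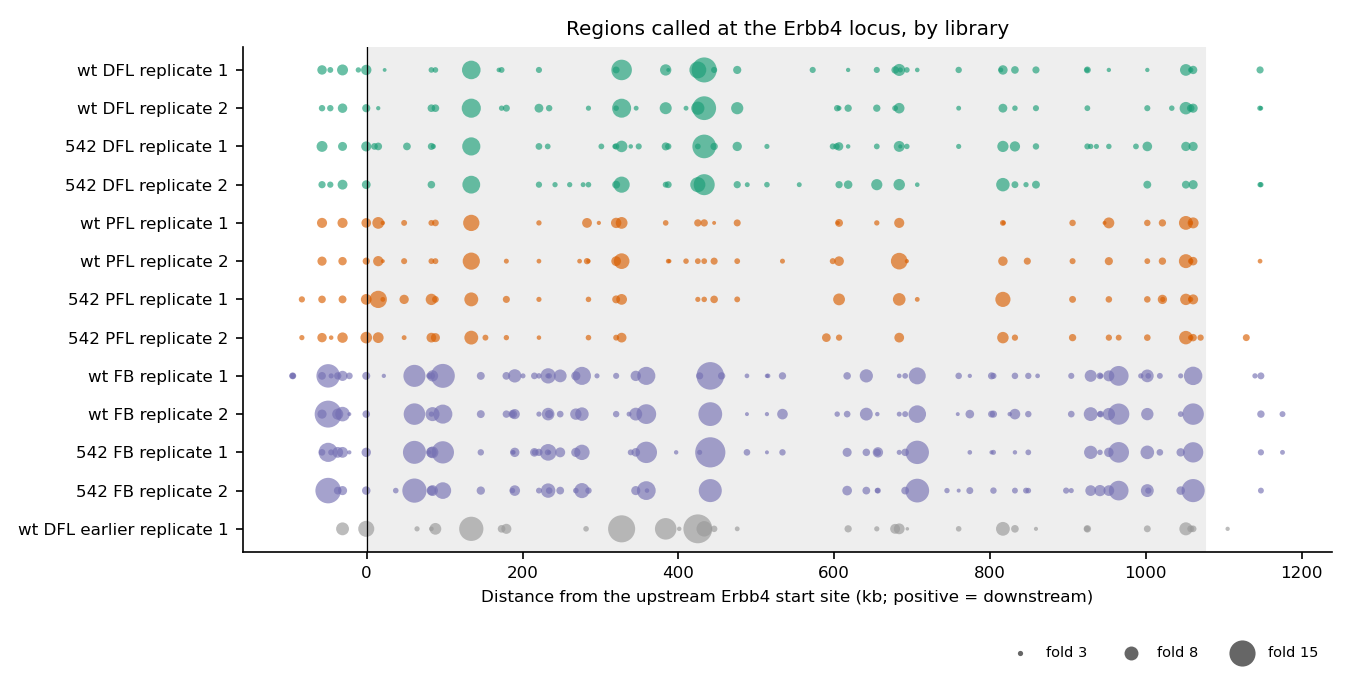
Regions called in each library (rows) at the Erbb4 locus by distance from the upstream start site (horizontal axis, kb), with the area of a circle growing as the square of the fold, and the gene body shaded. Large FB circles are spread over the gene, the largest at 441.0 kb (Erbb4-78), next to the DFL circles of Erbb4-79 at 433.2 kb.

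Outside the gene body, Erbb4-151 (chr1:69157270-69157941), 49.5 kb upstream, had folds of 13.5 and 15.5 in wt FB and 11 and 14.7 in 542 FB and no call in the limb. Erbb4-142, in intron 1 at 14.8 kb from the start (chr1:69093010-69093559), was the single Erbb4 region in all PFL and no DFL libraries. It had 6.76 and 5.88 in wt PFL and 9.92 and 6.19 in 542 PFL, was called at 2.45 and 4.42 in 2 DFL libraries, and was not called in FB. By contrast, the start region Erbb4-144 was present in all 12 libraries at modest fold. DFL gave 5.94, 4.68, 5.79 and 5.03, PFL gave 5.53, 4.13, 6.18 and 6.68, and FB gave 4.59, 4.34, 5.39 and 4.88, and the tissues overlapped.

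**Figure D3:**
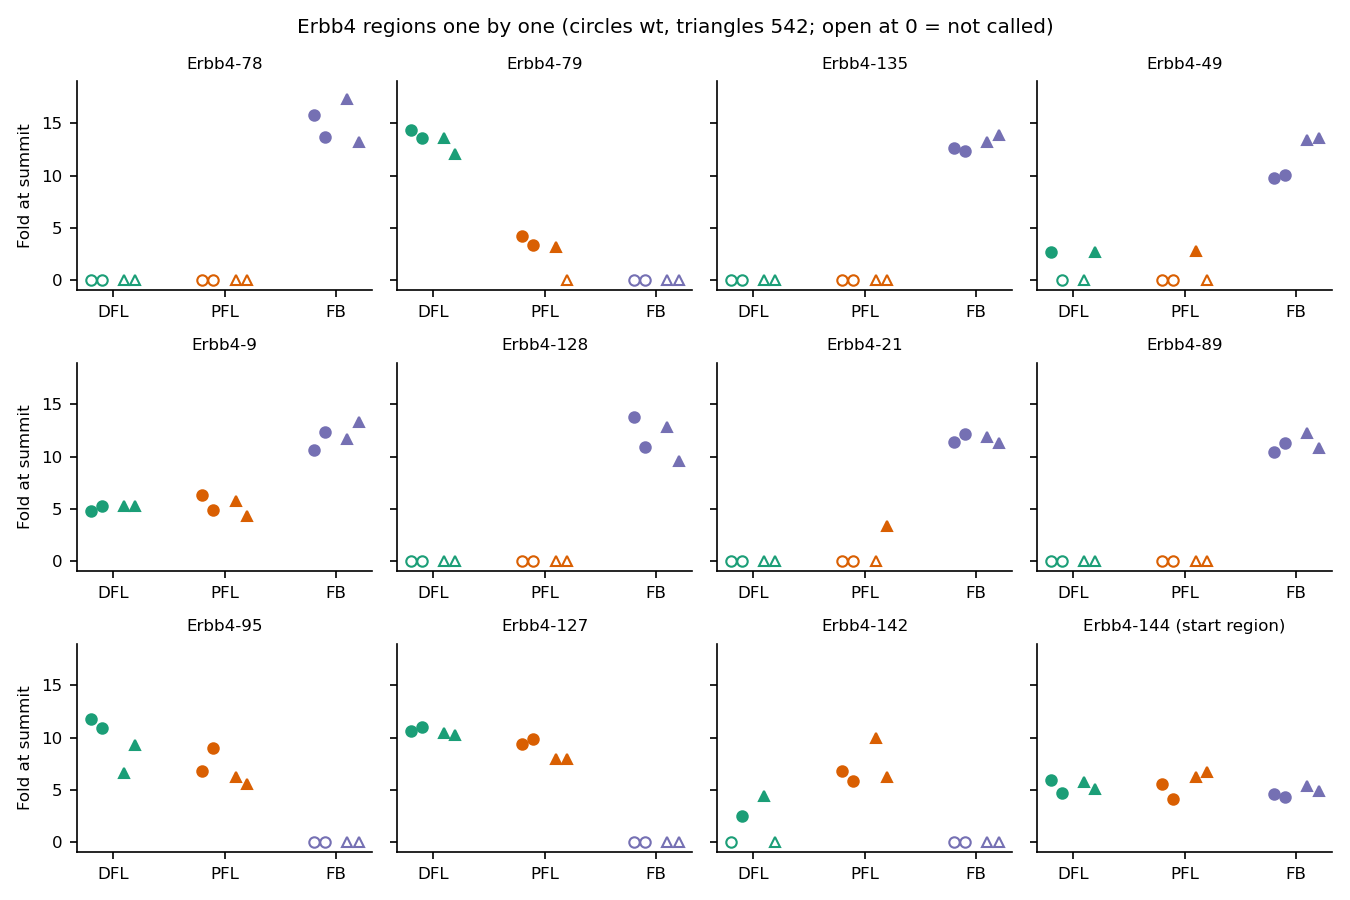
Fold at the summit (vertical axis) of the 10 strongest gene-body regions of Erbb4, the PFL region and the start region, with 1 symbol per library, circles for wt and triangles for 542, and open symbols at 0 where no region was called. Erbb4-78 was called in FB (13.2 to 17.3) and in no limb library, and Erbb4-79 was strong in DFL (12.1 to 14.4) and weak in PFL (at most 4.18).

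Within the limb, regions in all DFL and no PFL libraries made up 2.55% of all regions, and regions in all PFL and no DFL libraries 2.03%. Members numbered 2 of 203 in the first class, Erbb4-79 and Nrg1-53, and 8 of 203 in the second. Those 8 were Erbb4-142, the Egfr regions 27, 34 and 36, the Nrg1 regions 52, 67 and 96, and Nrg3-55. All 10 were intronic. Both DFL regions were in no FB list either, a class of 1.92% of all regions, as were 6 of the PFL regions, a class of 1.81%. Egfr-34 and Nrg3-55 were in lists of FB. Without wt DFL replicate 2 the DFL class held 4 regions outside Erbb4 in place of 1, and without 542 PFL replicate 2 it held 2.

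At Nrg1, which encodes the main ligand of ERBB3 and ERBB4, a DFL and a PFL region were 380 bp apart. Nrg1-53 (chr8:32118740-32119621) had folds of 6.89, 6.13, 7.29 and 6.86 in DFL and 3.25, 2.90 and 2.93 in 3 PFL libraries. Nrg1-52 (chr8:32117332-32118359) had 8.31, 5.14, 5.93 and 6.63 in PFL and a single DFL call of 3.80. Neither was called in FB. Their summits were 1075 bp apart, and DFL and PFL values of each did not overlap, which is how both were chosen. A similar pair of PFL and FB lay further on, where Nrg1-67 (chr8:32286442-32286924) had 4.87 to 6.004 in PFL, 2.64 to 4.38 in 3 DFL libraries and 3.37 in 1 FB library. Nrg1-66 (chr8:32284486-32285206), 2.0 kb away, had 10.2, 10.5, 12.3 and 11.2 in FB and no call in the limb.

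Some Nrg1 regions were shared by tissues. Nrg1-71 (chr8:32293001-32293916), in the long first intron, was the strongest of the locus in all tissues, at 16.6 ± 1.63 in DFL, 15.3 ± 1.27 in PFL and 19.5 ± 0.768 in FB (SD, n = 4). Nrg1-91 (chr8:32423988-32425264), picked out with its values in view, was a limb region, at 9.90 to 11.2 in DFL and 9.38 to 10.7 in PFL, and was not called in FB. Among the Nrg1 regions in all FB and no limb libraries, Nrg1-21 (chr8:31895204-31896032) was the strongest. It had 13.2, 13.1, 14.5 and 13.3 in FB and 2 DFL calls of 2.49 and 2.58.

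At Nrg3, which encodes a ligand of ERBB4 found mainly in the nervous system, 9 regions were in all FB and no limb libraries and none of them was called in the limb at any strength. The strongest were Nrg3-41 (chr14:38824265-38825404), with 11.95, 13.01, 13.54 and 12.33 in FB, and Nrg3-81 (chr14:39413194-39413912), with 13.03, 9.87, 15.17 and 11.08. Nrg3-67 (chr14:39173426-39174449), in intron 1, went the other way, with 7.0 to 9.82 in DFL, 8.33 to 9.56 in PFL and 3.04 to 3.69 in FB, without overlap.

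At Egfr the limb regions were the stronger ones. Egfr-37 in intron 1 (chr11:16843591-16844602) had 9.41, 10.1, 11.2 and 12.4 in DFL and 14, 12.4, 11.2 and 10.1 in PFL and was not called in FB. Egfr-20 (chr11:16783614-16784697), in the same intron, had 11.01, 8.62, 11.07 and 12.46 in PFL, 8.73, 9.04, 4.44 and 6.42 in DFL and no FB call. Egfr-36 (chr11:16841466-16841968), 2.3 kb from Egfr-37, was called at 3.84 to 5.90 in PFL and in no other tissue of the 12 libraries. Egfr-27 and Egfr-28 lay 1.1 kb apart, and their tissues differed. Egfr-27 was called at 4.16 to 6.33 in PFL, at 4.04 and 2.92 in 2 DFL libraries and not in FB. Egfr-28 was called at 5.47 to 6.02 in FB, at 2.77 to 4.18 in DFL and once in PFL, at 2.20.

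**Figure D4:**
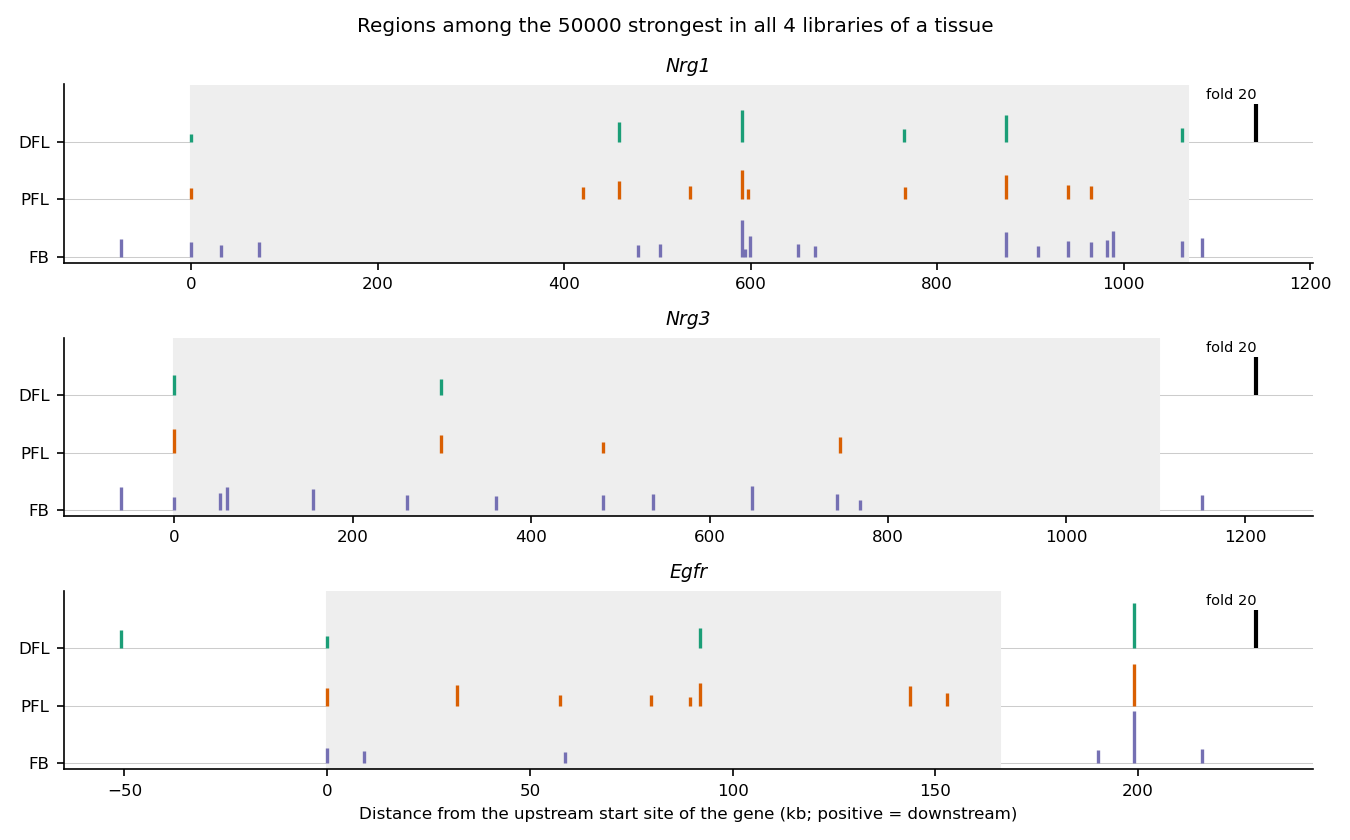
Regions in the lists of all 4 libraries of a tissue at Nrg1, Nrg3 and Egfr, by distance from the upstream start site (horizontal axis, kb), with the height of a line giving the mean fold and the black line a fold of 20. FB lines are the most numerous at Nrg1 and Nrg3, and PFL lines at Egfr.

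At the short receptor genes most of the strongest regions lay at the starts of neighbours. At Erbb3, Erbb3-17 lay at the start of Rps26, a ribosomal protein gene, with mean folds of 21 ± 1.08 in DFL, 18.8 ± 1.29 in PFL and 23.4 ± 1.71 in FB (SD, n = 4), and Erbb3-11 at the start of Pa2g4, with 17.6 ± 0.497, 17.1 ± 0.691 and 19.7 ± 0.836. Erbb3-8, next in strength, lay downstream of Erbb3 and 10597 bp from the nearest coding start, that of Esyt1. Its means were 12.6 ± 1.39 in DFL, 11.8 ± 0.886 in PFL and 14.9 ± 1.57 in FB. At Erbb2, the strongest were at the starts of Mien1 (Erbb2-26), Pgap3 (Erbb2-22) and Stard3 (Erbb2-14), with means between 9.77 and 15.9. Egfr-57, the strongest of the Egfr locus, lay at the start of Fbxo48. At Nrg2, a ligand gene related to Nrg1, the strongest were its own start and the exonic region Nrg2-17, with 12.3 ± 1.48 in DFL, 12.4 ± 1.24 in PFL and 14.7 ± 1.5 in FB.

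For regions called in all 12 libraries, differences were tested with limma on log2 fold after the median of each library had been set equal, over 27045 regions with Benjamini-Hochberg adjustment. The filter requires a call in every tissue and leaves out the tissue-restricted regions above, so that 52 of 553 members were tested. FB was higher than the limb in 14.8% of all regions tested and lower in 22%. Among the 52 members, 8 were higher (15.4%) and 12 lower (23.1%), which is near the background. The median difference of the 52 was 0.015 on the log2 scale, against -0.034 over all regions. Without setting medians equal, the median of all regions was 0.14 higher in FB, 9318 regions were then higher and 3552 lower, against 3995 and 5938 with equal medians, and the members split into 22 higher and 6 lower. With tags in place of fold 17 members were higher. Counts of either direction therefore depend on the scale, and only single regions are described.

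Erbb4-9 was higher in FB by 1.02 ± 0.09 (log2 difference ± SE, adjusted p = 5.07e-05 in limma), in each of the 4 FB libraries. Erbb4-18, in intron 20, had 7.33, 7.09, 7.82 and 7.40 in FB and 2.49 to 5.54 in the limb, a difference of 0.81 ± 0.10 (adjusted p = 0.000301 in limma). Nrg3-67 was lower in FB by the most, at -1.59 ± 0.10 (adjusted p = 7.01e-06 in limma). Nrg2-6, downstream of Nrg2, had 6.43 to 7.94 in FB and 2.59 to 4.24 in the limb, a difference of 0.94 ± 0.11 (adjusted p = 0.000237 in limma). Nrg2-11, also downstream, was higher by 0.49 on the log2 scale and Nrg2-3 lower at -0.69 (adjusted p = 0.000381 and 0.00024 in limma). Nrg2-26, in intron 1 of Nrg2, had 5.6 to 6.37 in FB and 7.84 to 10.3 in the limb, at -0.75 ± 0.07 (adjusted p = 4.08e-05 in limma). These differences kept their direction and stayed past the threshold in each alternative in which they could be fitted. This did not hold for Erbb3-19, which was also lower in FB, at -0.39 ± 0.06 (adjusted p = 0.00144 in limma). With tags in place of fold Erbb3-19 kept its direction, at -0.21, and did not pass (adjusted p = 0.14 in limma).

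**Figure D5:**
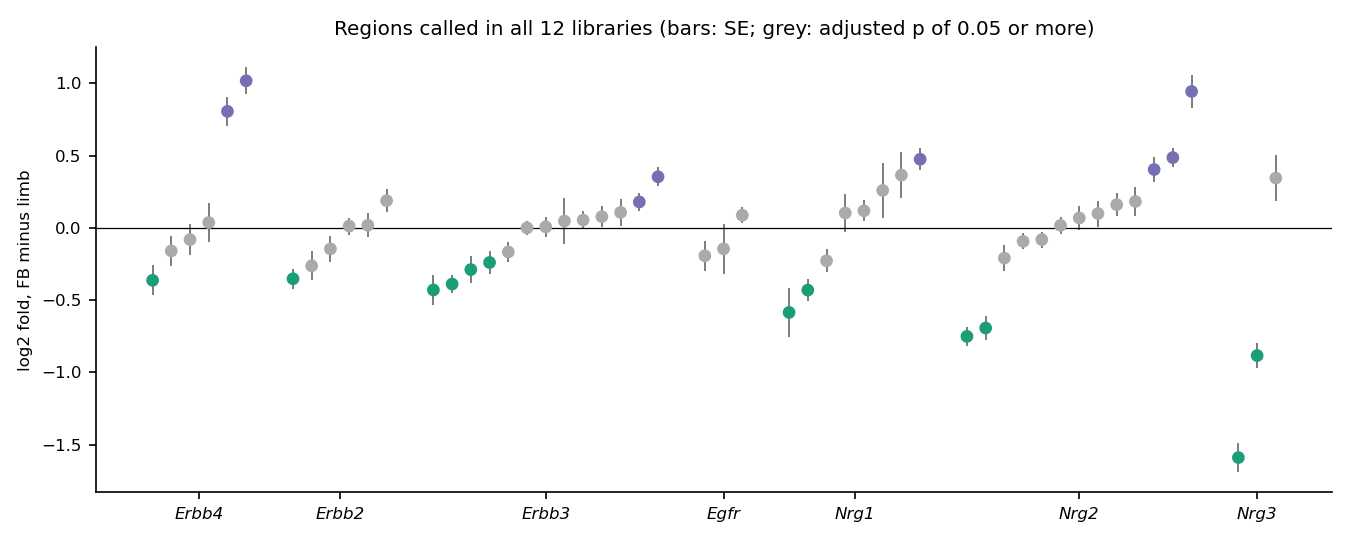
log2 fold in FB minus limb (vertical axis) for the 52 member regions called in all 12 libraries, grouped by locus and ordered by value, with bars for the SE, purple for higher in FB, green for lower and grey for regions that did not pass the adjusted p of 0.05. Erbb4-9 (1.02) is the highest and Nrg3-67 (-1.59) the lowest.

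Each of the 7 genes had a start region called in all 12 libraries, and the start regions so called were compared next. There were 14 regions within 1 kb of a start of their member gene. Those of Nrg1, Egfr and Nrg2 that were not called in all 12 libraries could not be tested. The Erbb3 start, Erbb3-14, had folds of 9.50, 8.72, 7.31 and 7.97 in FB and 4.86 to 6.91 in the limb, without overlap, a difference of 0.35 ± 0.06 (adjusted p = 0.00247 in limma). With tags in place of fold the difference was 0.14 and did not pass (adjusted p = 0.356 in limma). The upstream start of Nrg1, Nrg1-131, had 7.98, 7.29, 7.78 and 7.96 in FB, 5.06 to 6.71 in PFL and 3.90 to 4.58 in DFL, with 0.48 ± 0.08 for FB against limb (adjusted p = 0.0012 in limma). The 3 tissues did not overlap there. The inner start regions Nrg1-37 (11.4 to 14.98 in the 12 libraries) and Nrg1-27 (4.14 to 8.81) overlapped between tissues and did not pass (-0.23 ± 0.08 and 0.10 ± 0.13, adjusted p = 0.0513 and 0.579 in limma). Nrg1-27 passed with tags in place of fold (0.96, adjusted p = 3.65e-05 in limma). Nrg1-37 passed in 4 of 19 alternatives, among them without 542 PFL replicate 1 and without 542 FB replicate 1 (adjusted p = 0.0257 and 0.0372 in limma), and its adjusted p in limma ran from 0.0233 to 0.599. The Nrg3 start, Nrg3-86, had 6.86, 7.24, 6.56 and 7.02 in FB against 9.34 to 12.9 in the limb, a difference of -0.88 ± 0.08 (adjusted p = 6.39e-05 in limma). With tags in place of fold its direction reversed, to 0.46 higher in FB (adjusted p = 0.00385 in limma), so that its tag number and its ratio to the local background differed in opposite directions. At the Erbb2 start, Erbb2-25, the values of 6.61 to 7.97 in FB overlapped those of 7.29 to 9.28 in the limb, and the difference of -0.35 ± 0.07 passed (adjusted p = 0.00377 in limma). It did not pass without setting medians equal (adjusted p = 0.0903 in limma). The difference at the Erbb4 start, -0.36 ± 0.10 (adjusted p = 0.0222 in limma), turned to 0.13 with tags in place of fold and missed the threshold without wt FB replicate 1, wt FB replicate 2 or 542 FB replicate 2 (adjusted p = 0.0655, 0.0716 and 0.0982 in limma). It also missed it with quantile normalization and without setting medians equal (adjusted p = 0.206 and 0.158 in limma). The starts of Egfr (5.75 to 9.90) and Nrg2 (11.4 to 17.5) did not pass for FB against limb (adjusted p = 0.177 and 0.15 in limma), while Egfr passed with tags (-0.35, adjusted p = 0.0421 in limma) and Nrg2 without setting medians equal (0.34, adjusted p = 0.00673 in limma).

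Between DFL and PFL, 3.62% of all regions tested were higher in DFL and 2.9% lower. Of the members outside Erbb4, 1 was higher and 5 were lower. Nrg2-4, downstream of Nrg2, had 7.21, 7.89, 7.08 and 6.35 in DFL against 4.51 to 4.83 in PFL, a difference of 0.56 ± 0.07 (adjusted p = 0.00318 in limma). Nrg1-79, in the first intron, had 6.30, 5.43, 3.13 and 3.21 in DFL against 6.19 to 7.68 in PFL, at -0.79 ± 0.09 (adjusted p = 0.002 in limma). Its 2 lowest values were both of 542. Nrg1-131, the upstream start, was lower in DFL, at -0.48 ± 0.09 (adjusted p = 0.0141 in limma), and with tags in place of fold this call was lost (adjusted p = 0.36 in limma). Nrg1-33 had 3.21 to 5.71 in DFL and 6.25 to 9.07 in PFL, at -0.93 ± 0.19 (adjusted p = 0.0205 in limma), a call that was lost without any of 4 libraries (wt DFL replicate 1, wt DFL replicate 2, wt PFL replicate 1 or 542 PFL replicate 2, adjusted p of 0.0556 to 0.07 in limma). Nrg2-32 and the start region Egfr-11 were lower in DFL, at -0.51 and -0.50 (adjusted p = 0.0356 and 0.0394 in limma), and each call was lost in 9 of the 12 fits that left out a library. Counts with a library left out were made over all members in the fit, with Erbb4 regions included, and are no test of Erbb4. The count of 5 lower became 2 without wt DFL replicate 1 or 542 PFL replicate 2. It became 3 without wt DFL replicate 2, 542 DFL replicate 2, wt PFL replicate 1 or wt PFL replicate 2. The count of 1 higher became 2 without wt DFL replicate 1, 542 PFL replicate 1 or 542 PFL replicate 2.

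Between genotypes, 0.0133% of all regions were in all 6 wt and no 542 libraries and 0.0152% in all 6 542 and no wt libraries. No member was in either class, and without 542 PFL replicate 1 the class of 542 held 1. Within a tissue, members in both libraries of a genotype and neither of the other were few. In DFL 5 were in wt alone (2.46% of 203, against 2.58% of all regions) and 3 in 542 alone (1.48% against 2.03%). In PFL these were 4 (1.97% against 2.72%) and 2 (0.985% against 2.13%), and in FB 2 (0.985% against 1.68%) and 4 (1.97% against 1.55%). The 4 of 542 in FB were Erbb4-12, Erbb4-61, Erbb4-132 and Nrg1-85, and all of these member shares were near or below those of all regions. In the fit, 0.0924% of all regions were higher in 542 and 0.0998% lower, and 0 of the 52 members passed in limma. An unadjusted p under 0.05 was found for 9 of the 52 members and for 3854 of all 27045 regions. Within DFL, 0.0111% of all regions were higher in 542 and 0.0111% lower, within PFL 0% and 0.0074%, and within FB 0.0222% and 0.0185%. No member passed within a tissue in limma. In DFL, PFL and FB, 7, 3 and 3 of the 52 had an unadjusted p under 0.05, beside 2917, 3279 and 1972 of all 27045 regions. Over the 3 tissues together, with tags in place of fold limma called 2 members, and with a trended and robust variance it called 1, all higher in 542. Erbb4-132, in intron 1 (chr1:69024840-69025352), had the smallest adjusted p, 0.057 in limma, for a difference of 0.63 ± 0.10. Its folds were 6.52 and 5.59 in 542 PFL against 3.38 and 3.32 in wt PFL, 6.09 and 5.39 in 542 FB against 4.23 and 3.01 in wt FB, and 4.06 and 4.34 in 542 DFL against 3.22 and 4.38 in wt DFL. The genotypes overlapped in DFL and did not in PFL and FB. Its adjusted p in limma ran from 0.00292 with tags to 0.131 without 542 FB replicate 1, and it was among the 2 called with tags and the 1 called with the trended variance. The lowest adjusted p for a region lower in 542 was 0.284 in limma, at Erbb2-26, with -0.21 ± 0.08. The difference between tissues in the effect of genotype passed for 0 of the 52 members and 0 of all 27045 regions in the limma F-test, with 4 and 2412 at an unadjusted p under 0.05.

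Other genes of the pathway were described beside the members. The 8 ligands outside the neuregulins studied (Egf, Tgfa, Areg, Ereg, Btc, Hbegf, Epgn and Nrg4) had 26 regions in the fit, of which 3 were higher and 3 lower in FB than in the limb, beside the 14.8% and 22% of all regions tested. The 8 feedback and adaptor genes, among them Errfi1 and Lrig1, which restrain the receptors, and Grb2 and Sos1, which link them to RAS, had 4 of 60 higher and 9 lower, to be read beside the same shares. Of the genes of proteases that cleave ligands or receptors, Adam17 had 2 of 7 higher, Bace1 had 1 of 6 lower, and Adam10 had 0 of 2 in either direction in limma, with 0 at an unadjusted p under 0.05. In DFL against PFL the ligands had 1 higher and 1 lower and the feedback and adaptor genes 2 higher and 0 lower. In 542 against wt limma called 0 in both lists. There, 2 of the 26 and 10 of the 60 regions had an unadjusted p under 0.05, beside 3854 of all 27045 regions. Regions in all FB and no limb libraries numbered 2 of 72 at the ligands and 12 of 157 at the feedback and adaptor genes, beside the 8.81% of all regions. Mean numbers of listed regions per library were close in FB and limb, at 35.5 and 38.9 for the ligands and 84.0 and 84.4 for the feedback and adaptor genes.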

How the data were processed

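ATAC-seq libraries of mouse DFL, PFL and FB cells were analysed from the narrowPeak files deposited by the authors, 1 per library. The authors trimmed reads with cutadapt, mapped them with Bowtie, removed duplicates with Picard, converted alignments with bedtools and called regions with MACS2 in each library without a control. The wt reads were mapped on mm10 and the 542 reads on a mutant genome, so chromosome 2 from 75 Mb was left out. The deposited fold is the ratio of tags at the summit to the local background, and the deposited −log10 p and −log10 q values and the score go with it. No per-sample column was left unmapped (0).

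Duplicate lines of a region were reduced to unique regions, and the position with the highest fold was taken as its strongest summit. Regions of the 13 libraries that overlapped by at least 1 bp were merged into consensus regions. Tags under a summit were recovered from fold and −log10 p, and total tags from the most frequent background. Presence used the 50000 strongest regions of a library. Regions called in all 12 libraries were tested with limma 3.58.1 in R 4.3.3 on median-centred log2 fold with 6 group means, and p-values were adjusted by Benjamini-Hochberg at 0.05. They measure the spread between pools of embryos. The script was tested on simulated data. Same-numbered replicates did not deviate together (correlations of -0.0378 to 0.0158), so no block was used. The earlier wt DFL library entered no group. Tables were handled with pandas 2.3.3 and sequences with pysam 0.24.0.

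The members, gene lists and motifs were chosen with earlier results of these data known. Named Erbb4 regions were those of the gene body among the 50000 strongest in both libraries of a group, the 10 with the highest group mean in full. Also named were the start regions called in all 12 libraries and the 3 regions of each other locus with the highest group mean. Regions in all DFL or all PFL libraries and in none of both other tissues were named too. Of the 34 such regions of FB, only some were named. So were up to 5 per direction and limma contrast with the smallest adjusted p. Erbb4-81, Erbb4-87, Egfr-34, Nrg1-91 and Nrg3-55 were added after their values were seen. Alternatives were lists of 20000 or all regions, −log10 q of at least 10, stricter overlap, gene bodies alone, tags in place of fold, quantile normalization, no centring, a trended and robust variance, 500 bp windows, a replicate block and each library left out. Some listed genes, the window of Erbb4-95 and a window that the rule called for are not reported here.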

Additional observations from a re-analysis of the deposited data

Results flagged for a closer look

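The earlier wt DFL library belongs to none of the comparisons, and signal was seen there at the regions that separate DFL from PFL. The region Erbb4-79 had a fold of 8.89 in it, below the 12.1 to 14.4 of the 4 DFL libraries and above the 4.18 that was its highest value in PFL. The region Nrg1-53 had a fold of 11.16, above its values in the 4 DFL libraries. Of the 51 member regions listed in all 4 DFL libraries, 50 were also listed in the earlier library. Among the 51, 36 were in the lists of all 12 libraries, and the same share over all regions was not counted. The earlier library also held 25 member consensus regions that no other library called, 11 of them at Nrg1 and 5 at Erbb4. It was the deepest library, at 78.0 M tags. The part of depth in these 25 was not tested. With 2 replicates per group, no single library could be tested for standing apart from its group. The difference between tissues in the effect of genotype passed for 0 members in limma. There, 4 of 52 members and 2412 of all 27045 regions had an unadjusted p under 0.05, and no other tool was run.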

How the results depend on the processing

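Of 461 values of single regions under the alternatives, 415 kept their direction and their side of the threshold, 44 changed side and 2 reversed, both with tags in place of fold (Nrg3-86 to 0.461 and Erbb4-144 to 0.134 for FB against limb). The causes were not tested. Which regions counted as tissue-restricted depended on the length of the lists. With 20000 regions per library, Erbb4 had 0 regions of PFL, 5 of FB and 0 of the limb, and the other loci had 2 of PFL and 6 of FB. With all deposited regions, Erbb4 had 2 of DFL, 2 of PFL and 22 of FB, of which 0, 0 and 10 were among those of the main lists. The other loci had 6 of DFL, 5 of PFL, 41 of FB and 8 of the limb. Of these, 0, 1, 17 and 2 were among those of the main lists. Requiring cover of at least 50% of a consensus region left 0 of DFL and 1 of the limb at Erbb4 and 2 of DFL elsewhere. A −log10 q of at least 10 left 4 of PFL elsewhere, and gene bodies alone 3 of the limb.

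In limma, tags in place of fold gave 17 members higher in FB, 2 higher in 542, 2 higher in DFL and 8 lower in DFL. Counts for DFL, here and with a library left out, include Erbb4 regions and are no test of Erbb4. No centring gave 22 higher and 6 lower in FB and 3 lower in DFL. Regions among the 50000 strongest of all 12 libraries gave 5 higher in FB and 1 lower in DFL, and windows of 500 bp gave 3 lower in DFL. Gene bodies alone gave 4 higher and 7 lower in FB and 0 higher in DFL, where fewer regions were tested, and a trended and robust variance gave 1 higher in 542. With the replicate block, 7 members were higher and 10 lower in FB, 0 and 0 in 542, and 1 and 5 in DFL, and no call of a named region changed.

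Leaving out each library in turn gave 1 to 2 DFL, 1 to 1 PFL, 13 to 14 FB and 3 to 4 limb regions at Erbb4, and 1 to 4, 7 to 8, 21 to 24 and 5 to 6 at the other loci. It gave 0 to 0 regions of wt and 0 to 1 of 542. In limma it gave 7 to 10 higher and 8 to 13 lower in FB, 0 to 0 either way in 542, and 1 to 2 higher and 2 to 4 lower in DFL.

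The ratio of FB to limb regions, over all deposited regions, moved by more than its SD (from the spread of both tissues) with the 50000 strongest, to 1.93 at Erbb4, 1.03 at Erbb2 (from 1.62) and 1.77 at Nrg1. It did so with a −log10 q of at least 10, to 2.24 at Erbb4, 0.705 at Egfr and 2.03 at Nrg1, and in gene bodies alone, to 0.4 at Erbb3. Regions below the calling threshold have no value, and 2 replicates per group limit the precision.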
